A study of Homo sapiens with 12 samples.

Results

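The genes described here encode the proteins of the human mitochondrial ribosome that carry MRPL or MRPS symbols. They were found as the genes of both deposited tables whose symbol starts with MRPL or MRPS and a number and whose mean was at least 1 FPKM in each table (fragments per kilobase, a level corrected for transcript length and library size). All 78 genes with such a symbol met this limit, of 12203 genes listed in both tables (13583 in the overexpression table and 13554 in the knockdown table), and all 78 are annotated as protein-coding. The lowest, MRPS17, averaged 7.27 FPKM over the 12 libraries, so no member lay close to the limit.

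The cells were SW480, an established line of human colon adenocarcinoma origin. A line overexpressing GPD1L (OE) was set against a line with the overexpression vector (Vector), and a line with a short hairpin RNA against GPD1L (shGPD1L) against a line with a control hairpin (shNC). GPD1L encodes a relative of the cytosolic glycerol-3-phosphate dehydrogenase. Each of the 4 groups had 3 poly(A) RNA-seq libraries. The labels do not give the promoter, the hairpin sequence, the number of hairpins or clones, or whether the libraries within a group were grown separately. The p-values below therefore reflect variation among libraries that may be purely technical. GPD1L itself read 22.3, 22.8 and 22.1 FPKM in OE libraries, against 10.7, 10.2 and 11.1 FPKM in Vector libraries. It read 1.55, 1.26 and 2.23 FPKM in shGPD1L libraries, against 8.68, 8.01 and 9.10 FPKM in shNC libraries. Of 7 epithelial markers, 7 were listed in the overexpression table and 6 in the knockdown table, and 3 of 12 markers of leukocytes, fibroblasts, endothelium and hepatocytes were listed in each. Of these 3, CD68 lay between 15.3 and 29.3 FPKM, while COL1A1 and PDGFRB stayed at or below 1.46 FPKM. Among the epithelial markers KRT20 was as low, at 0.37 to 1.32 FPKM where listed. The other epithelial markers read at least 13.8 FPKM in every library. In bulk RNA, fewer cells with a transcript and less transcript per cell cannot be told apart.

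The mitochondrial ribosome translates the few messenger RNAs encoded by mitochondrial DNA, all of which specify subunits of the oxidative phosphorylation complexes. Its ribosomal RNAs come from the mitochondrial genome, whereas all of its proteins are encoded in the nucleus, made in the cytosol and imported. Some of these proteins descend from bacterial ribosomal proteins and others were added in mitochondria. By this background knowledge, 51 of the 78 members belong to the large subunit, 30 with a bacterial counterpart and 21 specific to mitochondria. A further 26 belong to the small subunit, 16 with a bacterial counterpart and 10 specific to mitochondria. MRPS18A and MRPS30 are counted with the large subunit, where they reside despite their names. MRPS36 is now known as part of the alpha-ketoglutarate dehydrogenase complex and was kept apart.

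The members lie on 21 chromosomes, and the selection did not use the features that follow. Their transcripts were short, with a median length of 1137 nt per gene against 2546.75 nt over all annotated genes listed. Their median GC content of 50.3% was close to the 50.4% of all listed genes. A protein-coding gene starts divergently from within 1000 bases for 19 members (24.4%), against 12.6% of listed protein-coding genes. Promoter windows of 250 bases before to 50 bases after the start were found for 69 of the 78 members in RefSeq (GRCh38.p14). On either strand, CCGGAAG, a core motif of the ETS family to which GABP belongs, occurred in 29 of the 69 windows (42.0%), against 19.4% of the 9901 windows of listed genes. AAGATGGC, a motif of YY1, occurred in 20 windows (29.0%), against 5.5% of all listed windows. The core of the NRF1 motif occurred in 11.6% of member windows, against 11.8% of all listed windows. A GC box, read as GGGCGGG, was found in 49.3% of member windows, against 54.7% of all listed windows. The E-box, read as CACGTG, was found in 8.7% of member windows, against 10.3% of all listed windows. The motif called the CCAAT box by its letters was present in 29.0% of the windows of members, against 36.5% of all listed windows. None of the ETS, YY1 and NRF1 core motifs occurred in 24 of the 69 windows. These are matches of letters, not sites of binding.

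The windows of 4 members are shown because these members had the largest differences described below. Capitals mark the ETS, YY1 and NRF1 core motifs, and other motifs are not marked. Base 251 of each window is the start given by RefSeq. The gene limits printed further below come from GENCODE and can differ from it. For MRPS33 the GENCODE start (141015228, minus strand) lies outside the window. The MRPL42 window, chr12:93467264-93467563 on the plus strand, holds the YY1 motif at bases 259 to 266.
MRPL42: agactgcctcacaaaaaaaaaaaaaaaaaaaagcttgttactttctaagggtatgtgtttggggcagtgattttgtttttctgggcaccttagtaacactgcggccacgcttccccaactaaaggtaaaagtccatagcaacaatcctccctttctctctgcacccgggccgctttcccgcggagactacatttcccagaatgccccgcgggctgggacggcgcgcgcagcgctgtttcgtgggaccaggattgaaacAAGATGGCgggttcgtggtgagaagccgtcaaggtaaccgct
The MRPS33 window, chr7:141014903-141015202 on the minus strand, holds the NRF1 core at bases 96 to 105 and the ETS motif, as its reverse complement CTTCCGG, at bases 251 to 257.
MRPS33: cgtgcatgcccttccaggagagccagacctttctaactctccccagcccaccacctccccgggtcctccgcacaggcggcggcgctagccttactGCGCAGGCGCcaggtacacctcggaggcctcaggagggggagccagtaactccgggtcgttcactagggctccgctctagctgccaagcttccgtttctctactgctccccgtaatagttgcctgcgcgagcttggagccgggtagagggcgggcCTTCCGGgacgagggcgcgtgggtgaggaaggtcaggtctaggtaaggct
The MRPL33 window, chr2:27771469-27771768 on the plus strand, holds the ETS motif at bases 243 to 249.
MRPL33: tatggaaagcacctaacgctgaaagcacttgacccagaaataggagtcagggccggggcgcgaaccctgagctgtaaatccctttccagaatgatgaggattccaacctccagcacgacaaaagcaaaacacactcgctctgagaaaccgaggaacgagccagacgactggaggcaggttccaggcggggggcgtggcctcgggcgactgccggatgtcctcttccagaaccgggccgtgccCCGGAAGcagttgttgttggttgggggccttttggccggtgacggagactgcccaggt
The MRPL34 window, chr19:17292323-17292622 on the plus strand, holds none of the 3 motifs.
MRPL34: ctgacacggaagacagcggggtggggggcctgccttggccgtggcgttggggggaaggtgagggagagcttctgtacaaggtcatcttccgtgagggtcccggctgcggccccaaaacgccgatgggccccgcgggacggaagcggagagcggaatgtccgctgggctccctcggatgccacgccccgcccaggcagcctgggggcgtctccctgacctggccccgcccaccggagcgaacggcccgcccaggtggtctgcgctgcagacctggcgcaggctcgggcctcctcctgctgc
Among members higher in OE, 4 of 11 windows held the ETS motif and 2 of 11 the YY1 motif. Of the members lower in OE, 3 of 4 windows held the ETS motif and 0 of 4 the YY1 motif, and of the members not called, 22 and 18 of 54 windows.

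FPKM corrects for transcript length, so levels may be compared between genes of a library, within limits. Of the members, 34 have at least 1 named pseudogene (75 pseudogenes in all), and 0 have one that is listed. Reads shared with pseudogenes were not examined. The member median per library was 26.8 to 29.3 FPKM in OE, 27.8 to 28.3 in Vector, 24.9 to 33.5 in shGPD1L and 29.1 to 33.8 in shNC. Levels are not compared across the 2 tables, whose normalization may differ. By the mean over the 12 libraries, used here only to choose which members to name, the 5 highest were MRPL3 (89.7 FPKM), a large subunit core protein, MRPS34 (82.9), a mitochondria-specific protein of the small subunit, MRPL37 (81.5), a mitochondria-specific protein of the large subunit, MRPL12 (75.4), the stalk protein that contacts translation factors, and MRPS2 (70.3) of the small subunit. The 5 lowest were MRPS17 (7.27 FPKM), MRPS23 (7.66), MRPS11 (8.12) and MRPS25 (8.61) of the small subunit and MRPL50 (8.35) of the large subunit. Ranked within each table, MRPL3, MRPL37 and MRPS34 held the first 3 places in both, MRPL12 the places 6 and 4 and MRPS2 the places 7 and 6 in the overexpression and the knockdown table, and the 5 lowest were the same in both. Members of the same particle were thus measured at widely different messenger RNA levels within a table.

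In OE cells 14 of the 78 members were higher and 5 lower than in Vector cells (24.4%), at a Benjamini-Hochberg adjusted p under 0.05 from limma over 12208 genes. This share was close to that of all genes tested, 22.4%, so the count is not a result about the members as a group. By direction, 17.9% of members were higher, against 12.2% of all genes, and 6.41% lower, against 10.3%. Groups did not overlap for 24 higher members (30.8%, against 24.2% of all genes) and 11 lower ones (14.1%, against 17.6%). The members' median log2 difference was 0.04, against 0.02 over all genes, on the scale of log2(FPKM + 1), and 63 of the 78 lay within 0.2 of 0. In the heat map of single libraries, members that passed and members that did not lie interleaved outside the extremes, since size alone did not decide the call: MRPS25 (-0.25) did not pass and MRPL16 (-0.17) did.

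**Figure D1:**
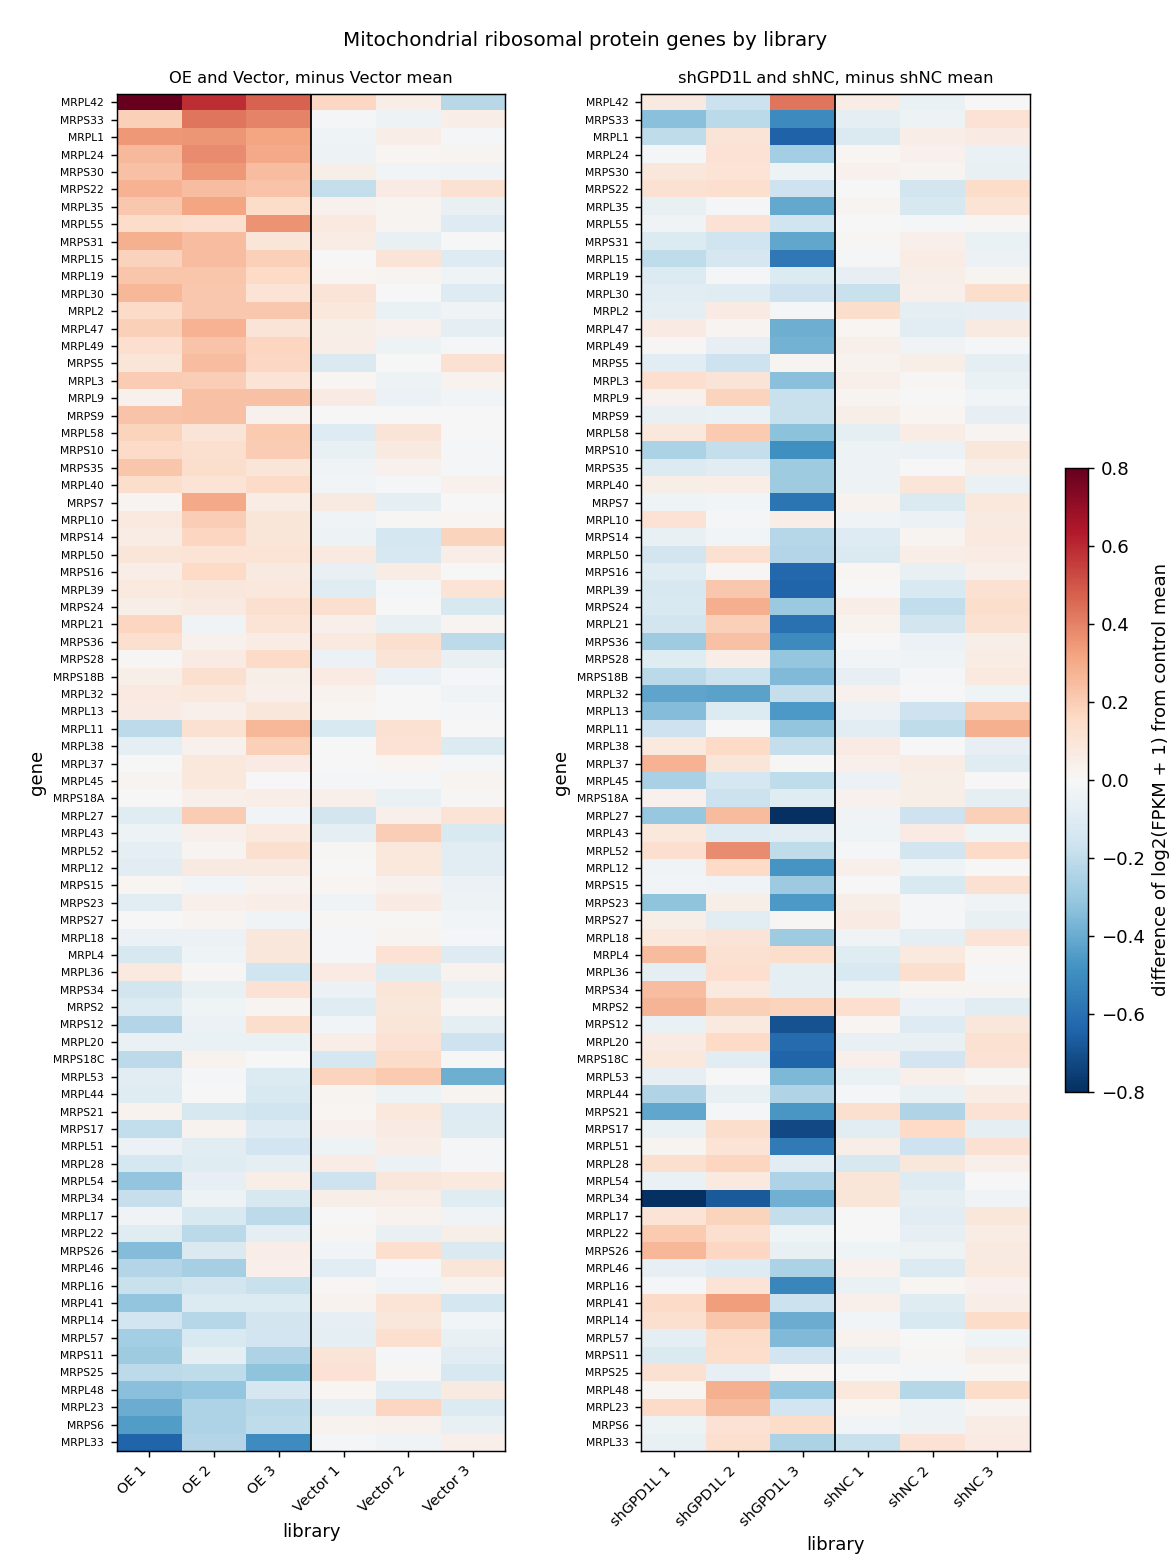
Each row is 1 of the 78 members and each column 1 library; colour gives log2(FPKM + 1) minus the mean of the control group of the same table (Vector on the left, shNC on the right), ordered by the OE minus Vector difference from MRPL42 (0.62) to MRPL33 (-0.46). The column of shGPD1L replicate 3 is blue for most genes, while the other shGPD1L columns are mixed.

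MRPL42 (chr12:93467488-93516213, GRCh38, plus strand), a mitochondria-specific protein of the large subunit, had the largest rise. It read 17.9, 15.3 and 14.0 FPKM in OE libraries, against 11.2, 10.2 and 8.28 FPKM in Vector libraries. All OE libraries thus lay above all Vector libraries, with means of 15.7 ± 1.97 and 9.90 ± 1.48 FPKM (SD, n = 3 each). The log2 difference was 0.62 ± 0.12 (SE; limma adjusted p = 0.00795). In the knockdown table MRPL42 had 10.6, 8.78 and 13.8 FPKM in shGPD1L libraries, against 10.5, 9.62 and 10.0 FPKM in shNC libraries, and the groups overlapped.

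MRPL1 (chr4:77862520-77952790, plus strand), a protein of the L1 stalk next to the exit site of transfer RNA, read 27.0, 27.0 and 26.3 FPKM in OE libraries, against 20.4, 21.8 and 20.8 FPKM in Vector libraries. Its groups were tight and apart (log2 difference 0.34 ± 0.05, adjusted p = 0.0028). MRPS33 (chr7:141002610-141015228, minus strand), a mitochondria-specific protein of the small subunit, read 14.4, 17.1 and 16.7 FPKM in OE libraries, against 12.3, 12.1 and 13.0 FPKM in Vector libraries (log2 difference 0.34 ± 0.07, adjusted p = 0.0140). The lowest OE library lay above the highest Vector library. MRPL24, a large subunit protein with a bacterial counterpart, averaged 22.2 ± 0.994 FPKM in OE and 17.7 ± 0.445 FPKM in Vector (log2 difference 0.31, adjusted p = 0.00552). MRPS30 averaged 31.1 ± 1.38 FPKM in OE and 25.5 ± 0.779 FPKM in Vector (0.28, adjusted p = 0.00814). The groups did not overlap for either gene.

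The other 9 members that rose did so by 0.15 to 0.25 log2 units. They were MRPS22, MRPS31 and MRPS35 of the mitochondria-specific part of the small subunit, and MRPL35, MRPL15, MRPL19, MRPL2, MRPL49 and MRPL3 of the large subunit. MRPS22, a gene known from inherited deficiencies of oxidative phosphorylation, overlaps COPB2 on the opposite strand, and MRPL19 overlaps GCFC2. GCFC2 was itself higher in OE (5.89 against 4.46 FPKM in Vector, log2 difference 0.34, adjusted p = 0.0127), and since strandedness is not stated, reads of the 2 genes cannot be told apart. COPB2 differed by 0.05 (adjusted p = 0.457). MRPL2 overlaps KLC4 on the opposite strand, which differed by -0.11 (limma adjusted p = 0.311). MRPL49 overlaps FAU (229 FPKM in OE and 238 FPKM in Vector, -0.06, adjusted p = 0.494) and SYVN1 (-0.09, adjusted p = 0.304) on the opposite strand. The same limit on telling reads apart applies to these genes.

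The 5 members that fell in OE were led by MRPL33 (chr2:27771717-27988087, plus strand), one of the smallest proteins of the large subunit. It read 19.6, 26.3 and 21.6 FPKM in OE libraries, against 30.8, 30.6 and 32.1 FPKM in Vector libraries. OE replicate 2 stood nearest to the Vector libraries but below them (log2 difference -0.46 ± 0.09, adjusted p = 0.0113). MRPL33 overlaps BABAM2 on the same strand, which differed by 0.14 (adjusted p = 0.202). MRPS6 (chr21:34073224-34143034, plus strand), of the small subunit, read 15.0, 17.4 and 17.9 FPKM in OE libraries, against 21.2, 21.3 and 20.0 FPKM in Vector libraries (-0.30 ± 0.07, adjusted p = 0.0209). These groups did not overlap, and SLC5A3, which overlaps MRPS6 on the same strand, differed by -0.11 (adjusted p = 0.283). MRPL23, at the exit of the nascent chain tunnel, fell by 0.28, MRPL48 by 0.26 and MRPL16 by 0.17 on the log2 scale.

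**Figure D2:**
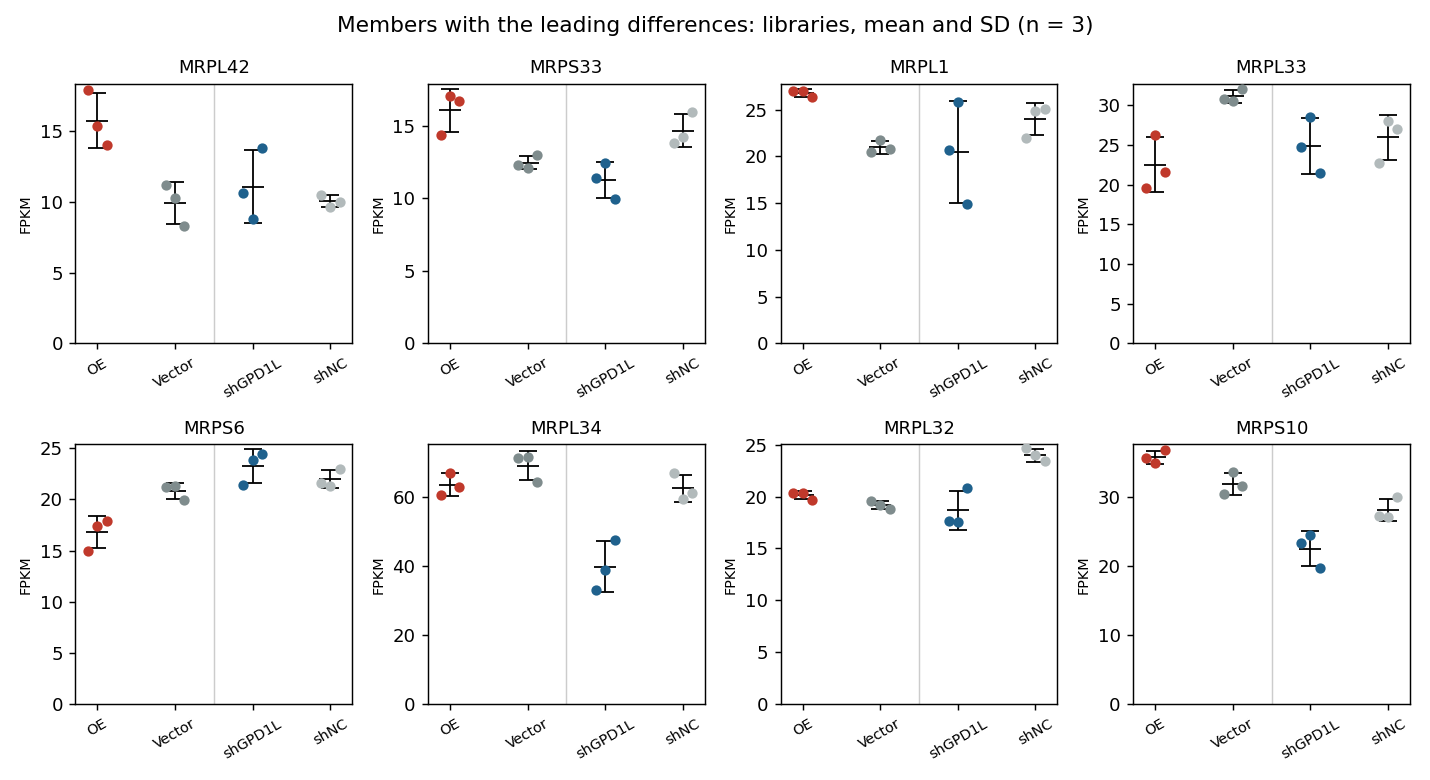
FPKM of 8 members in every library, with OE and Vector left of the line and shGPD1L and shNC right of it; points are libraries, and bars are the mean and SD (n = 3). MRPL42, MRPS33 and MRPL1 lie higher in OE than in Vector, MRPL33 and MRPS6 lower, and MRPL34 lies lower in all 3 shGPD1L libraries than in any shNC library.

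By subunit and origin, 7 members rose and 3 fell of 30 large subunit members with a bacterial counterpart. Of the 21 large subunit members specific to mitochondria, 3 rose and 1 fell. The small subunit had 0 rises and 1 fall among 16 members with a bacterial counterpart, and 4 rises and 0 falls among 10 members specific to mitochondria. Over all genes 12.2% were higher and 10.3% lower, the classes are small, and differences between them were not tested. The median differences of these classes lay between 0.03 and 0.06. The paralogs MRPS18A, MRPS18B and MRPS18C, which sit in different places of the ribosome, differed by 0.03, 0.07 and -0.06 and were not called. MRPL12 differed by 0.02, MRPL58, which doubles as a peptidyl-tRNA hydrolase, by 0.16 (adjusted p = 0.0952) and MRPS36 by 0.07.

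MRPL42, MRPL1, MRPL24, MRPS30 and MRPL33 were called under all 16 alternative settings. The call of MRPS33 was lost without Vector replicate 2 (adjusted p = 0.0507), and that of MRPS6 without Vector replicate 1 (0.0625) or 2 (0.0697). The calls of MRPS22, MRPL35, MRPS31, MRPL15, MRPL19, MRPL23, MRPL48 and MRPL16 held under 6 to 11 of the settings. For MRPS35, MRPL2, MRPL49 and MRPL3 the number of settings is not given. Counts were smaller with 1 library left out: 7 higher and 2 lower without OE replicate 1, 5 and 2 without OE replicate 2, 12 and 4 without OE replicate 3, 6 and 1 without Vector replicate 1, 5 and 3 without Vector replicate 2, and 8 and 5 without Vector replicate 3. Calls over all 12208 genes fell as well, from 2740 to between 1550 and 1980. Scaling moved the split: of the called members 73.7% were higher as reported, 92.3% with equal library totals (24 higher, 2 lower) and 56.2% with median-of-ratios scaling (9 higher, 7 lower). Over all genes the calls numbered 3418 and 2717 with these scalings.

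In shGPD1L cells 0 of the 78 members passed the threshold against shNC cells by limma, where 0.592% of all 12156 genes did. At an unadjusted p under 0.05, 1 member was higher and 8 were lower (11.5%, against 16.3% of all genes). The median log2 difference of the members was -0.09, against -0.04 over all genes, and 19 of the 78 were above 0 (24.4%, against 41.6% of all genes). This shift rested on shGPD1L replicate 3. In that library the members had a median of -0.28 relative to the shNC mean, against -0.04 and 0.08 in shGPD1L replicates 1 and 2. It was the lowest of the 6 libraries for 58 of the 78 members (74.4%), against 36.7% of all genes tested. The summed FPKM of the members was 2861, 2983 and 2396 in the shGPD1L libraries, against 2856, 2802 and 2931 in the shNC libraries.

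**Figure D3:**
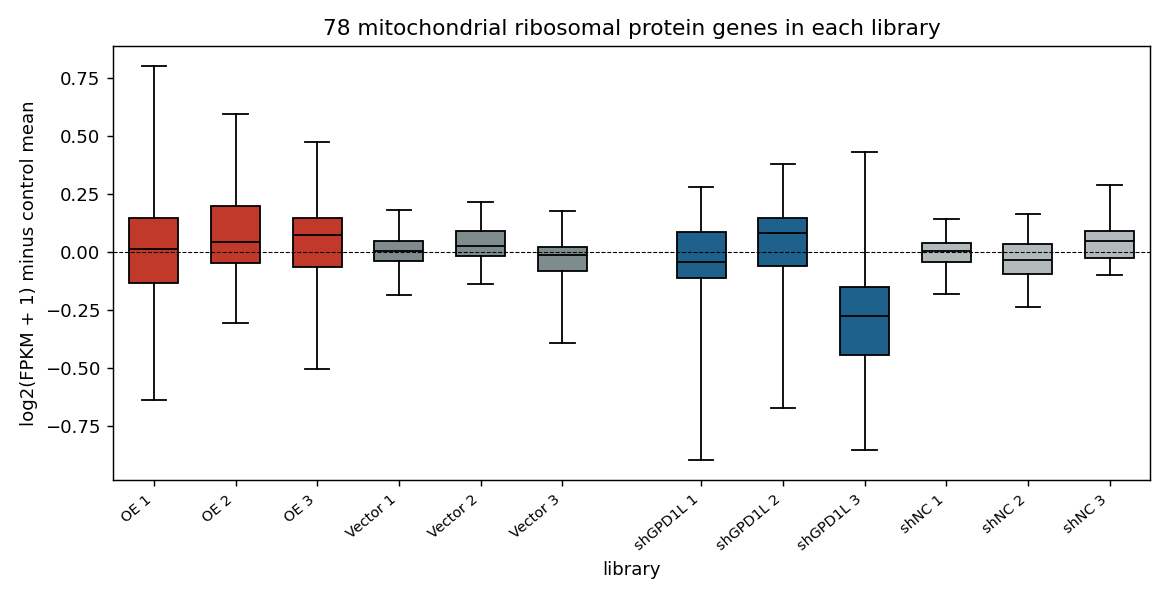
Distribution over the 78 members of log2(FPKM + 1) minus the mean of the control group of the same table, for each of the 12 libraries; boxes span the quartiles with the median as a line, and whiskers reach the lowest and highest member. The box of shGPD1L replicate 3 is centred on -0.28, while those of the other 11 libraries are centred between -0.04 and 0.08.

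Cytosolic ribosomal protein genes were also low in that library against its own group, while relative to the shNC mean their medians were 0.05, 0.23 and -0.10 in shGPD1L replicates 1, 2 and 3. Relative to the mean of shGPD1L replicates 1 and 2, replicate 3 was lower for 71 of the 78 members (91.0%, median -0.28), for 74 of 83 cytosolic ribosomal protein genes (89.2%, median -0.26) and for 57.0% of all genes (median -0.05). The 13 mitochondrially encoded messenger RNAs had a median of 0.01 relative to shNC in replicate 3, against -0.09 in replicate 1 and -0.31 in replicate 2. GPD1L was also highest in replicate 3 among the shGPD1L libraries. The spread of the members between libraries was a median SD of 0.18 log2 units in shGPD1L and 0.08 in shNC, against 0.15 and 0.09 over all genes. The knockdown results below are given with all libraries and then without this one.

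Without shGPD1L replicate 3, the members' median was 0.01, against -0.01 over all genes, and 0 members were higher and 2 lower by limma (2.56%, against 5.01% of all genes, of which 1.8% were higher and 3.21% lower). At an unadjusted p under 0.05, 7 members were higher and 7 lower (17.9%, against 23.9% of all genes). The 2 called members, MRPL34 and MRPL32, are both proteins of the large subunit with a bacterial counterpart. They were the members with the smallest p among those lower with all 6 libraries too.

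MRPL34 (chr19:17292609-17306843, plus strand) read 33.1, 38.8 and 47.7 FPKM in shGPD1L libraries, against 67.0, 59.5 and 61.2 FPKM in shNC libraries. All shGPD1L libraries lay below all shNC libraries, and replicate 3 lay nearest to them. With all libraries the means were 39.9 ± 7.38 and 62.6 ± 3.96 FPKM (log2 difference -0.65 ± 0.13, adjusted p = 0.0808). Without replicate 3 the difference was -0.79 ± 0.09 (adjusted p = 0.00899). MRPL34 overlaps ABHD8 on the opposite strand, which averaged 1.05 FPKM in shGPD1L and 0.799 FPKM in shNC. In the overexpression table MRPL34 had 60.6, 67.1 and 63.1 FPKM in OE libraries, against 71.5, 71.6 and 64.4 FPKM in Vector libraries, and these groups overlapped.

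MRPL32 (chr7:42932200-42948958, plus strand) is the large subunit protein whose maturation by the m-AAA protease, known from yeast and mouse, precedes its assembly. It read 17.6, 17.6 and 20.9 FPKM in shGPD1L libraries, against 24.6, 24.0 and 23.4 FPKM in shNC libraries. Replicate 3 was here the highest of its group, contrary to most members, and still below the shNC libraries. The log2 difference was -0.35 ± 0.09 with all libraries (adjusted p = 0.142) and -0.43 ± 0.06 without replicate 3 (adjusted p = 0.0159). PSMA2, a proteasome subunit gene that starts divergently from MRPL32 and overlaps it, differed by -0.15 (adjusted p = 0.791) and by 0.06 without replicate 3 (adjusted p = 0.881).

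MRPS33 read 11.4, 12.5 and 9.97 FPKM in shGPD1L libraries, against 13.8, 14.2 and 16.0 FPKM in shNC libraries, without overlap (-0.35 ± 0.10, adjusted p = 0.173; without replicate 3 -0.28, adjusted p = 0.113). MRPS10, a small subunit protein with a bacterial counterpart, read 23.4, 24.5 and 19.7 FPKM in shGPD1L libraries, against 27.3, 27.2 and 30.1 FPKM in shNC libraries (-0.31 ± 0.10, adjusted p = 0.199; without replicate 3 -0.22, adjusted p = 0.116). MRPS18B averaged 45.8 ± 3.08 FPKM in shGPD1L and 54.5 ± 2.86 FPKM in shNC (-0.25, adjusted p = 0.221; without replicate 3 -0.19, adjusted p = 0.139). PPP1R10, which overlaps MRPS18B on the opposite strand, differed by -0.28 (limma adjusted p = 0.157) and by -0.31 without replicate 3 (adjusted p = 0.0467). As strandedness is not stated, reads of MRPS18B and PPP1R10 cannot be told apart. Groups did not overlap for 10 lower members (12.8%, against 15.1% of all genes) and 2 higher ones (2.56%, against 9.54%), MRPS2 and MRPL4. Without replicate 3, which leaves 2 libraries against 3, these counts were 11 lower (14.1%, against 23.6% of all genes) and 15 higher (19.2%, against 19%). MRPS2 averaged 85.6 ± 3.16 FPKM in shGPD1L and 73.8 ± 6.26 FPKM in shNC (0.21, adjusted p = 0.277; without replicate 3 0.23, adjusted p = 0.143). MRPL4, at the peptide exit tunnel, averaged 74.9 ± 3.68 FPKM in shGPD1L and 66.4 ± 4.13 FPKM in shNC (0.17, adjusted p = 0.354; without replicate 3 0.19, adjusted p = 0.190). MRPL37, MRPS26 and MRPL22 had differences of 0.13, 0.12 and 0.10 with overlapping groups (0.19, 0.22 and 0.17 without replicate 3). Without replicate 3, MRPL41 and MRPL23 had differences of 0.24 and 0.20, MRPS26 the 0.22 above, and MRPL45, which tethers the ribosome to the inner membrane, one of -0.20, all with adjusted p between 0.107 and 0.128.

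Whether the overexpression effect differed from the knockdown effect was tested as the first less the second over all 12 libraries, which share no controls. It passed for 9 members in the positive and 1 in the negative direction (12.8%), against 14.1% of 11208 genes (9.14% positive and 5% negative), again a share near the background. MRPS33 had the largest difference, 0.69 ± 0.13 (limma adjusted p = 0.00637): it was higher in OE and read lower in shGPD1L, and the call held under all 22 alternative settings. MRPS10 (0.47 ± 0.11, adjusted p = 0.0183) and MRPL32 (0.41 ± 0.10, adjusted p = 0.0170) were called under 21 and 20 of these settings. MRPL34 (0.53), MRPL15 (0.51), MRPS31 (0.44), MRPS18B (0.32), MRPS35 (0.31), MRPL19 (0.28) and MRPS6 (-0.37) passed under 8 to 13 settings. With 1 library left out, calls over all 11208 genes ranged from 790 to 2572, against 1584 with all 12 libraries. The counts of members without 1 library were 3 positive and 0 negative without OE replicate 1 or 2, Vector replicate 3, or shNC replicate 2 or 3, and 4 and 0 without Vector replicate 1 or 2. They were 5 and 1 without OE replicate 3, 6 and 0 without shNC replicate 1, 7 and 1 without shGPD1L replicate 1, 15 and 0 without shGPD1L replicate 2, and 14 and 7 without shGPD1L replicate 3 (26.9%, against 22.9% of all genes, of which 13.8% were positive and 9.15% negative).

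**Figure D4:**
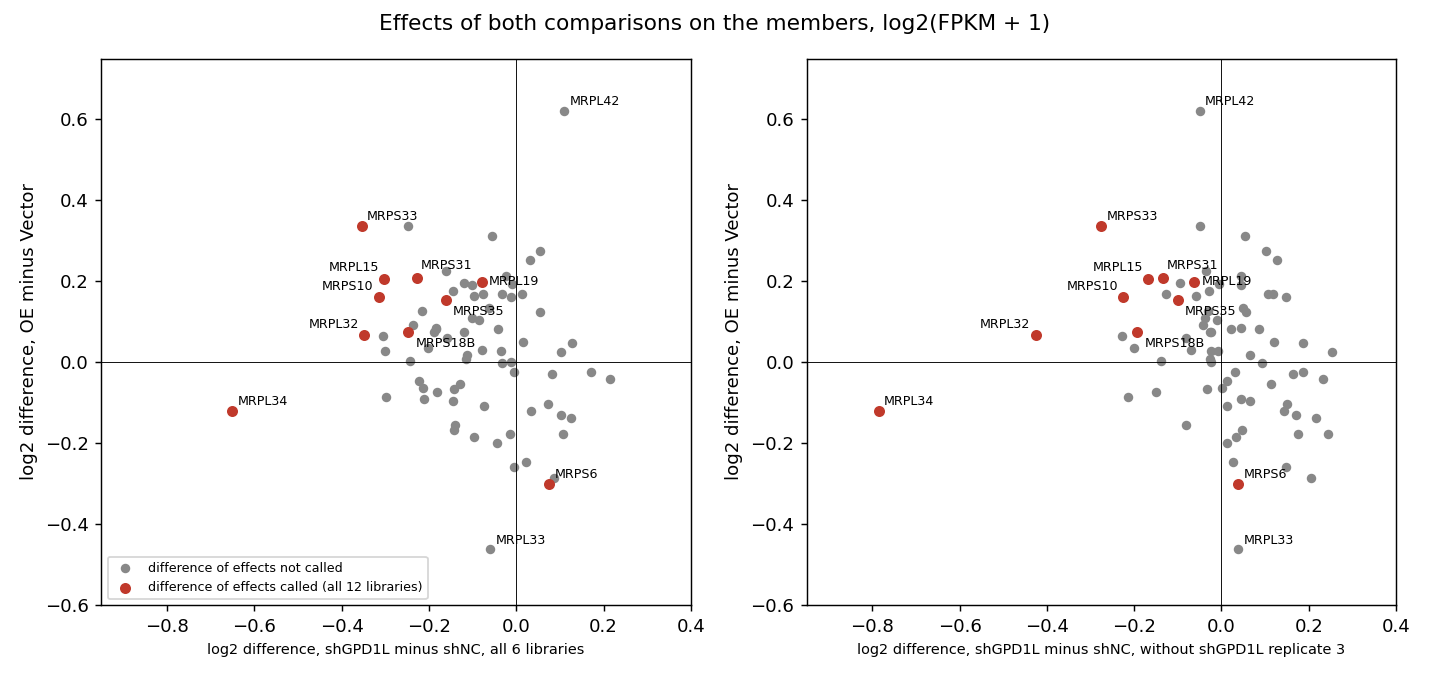
Log2 difference of each of the 78 members in OE minus Vector (vertical axis) against shGPD1L minus shNC (horizontal axis), with all 6 knockdown libraries on the left and without shGPD1L replicate 3 on the right; red points passed the test of the difference of effects over all 12 libraries. MRPS33, at 0.34 and -0.35 on the left, lies at the upper left, MRPL34 far to the left and MRPL42 at the top near the middle.

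Across the 78 members the 2 sets of log2 differences had a Spearman correlation of -0.32 without shGPD1L replicate 3 (-0.21 with it), and across 11270 genes one of -0.12 (-0.09 with it). This is a description across genes, which are not independent, and both sets also varied with GC content. The OE minus Vector difference fell with the median GC content of a gene's transcripts, with a Spearman correlation of -0.33 over the members and -0.34 over 11426 genes. The shGPD1L minus shNC difference without replicate 3 rose with it, 0.44 over the members and 0.28 over 11378 genes. With the members in 3 bins of 26 by GC content, 10 rose and 2 fell in OE in the bin with the lowest GC (35.0% to 46.4%), 1 rose and 2 fell in the middle bin, and 3 rose and 1 fell in the highest bin (54.0% to 71.9%). The medians from low to high GC were 0.16, 0.00 and -0.00. Over all genes in the same GC ranges, 20.5% were higher and 4.95% lower in the lowest, 9.78% and 11.4% in the middle and 6.63% and 15.9% in the highest, with medians of 0.10, 0.01 and -0.05. The part of GC content in single differences was not tested.

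**Figure D5:**
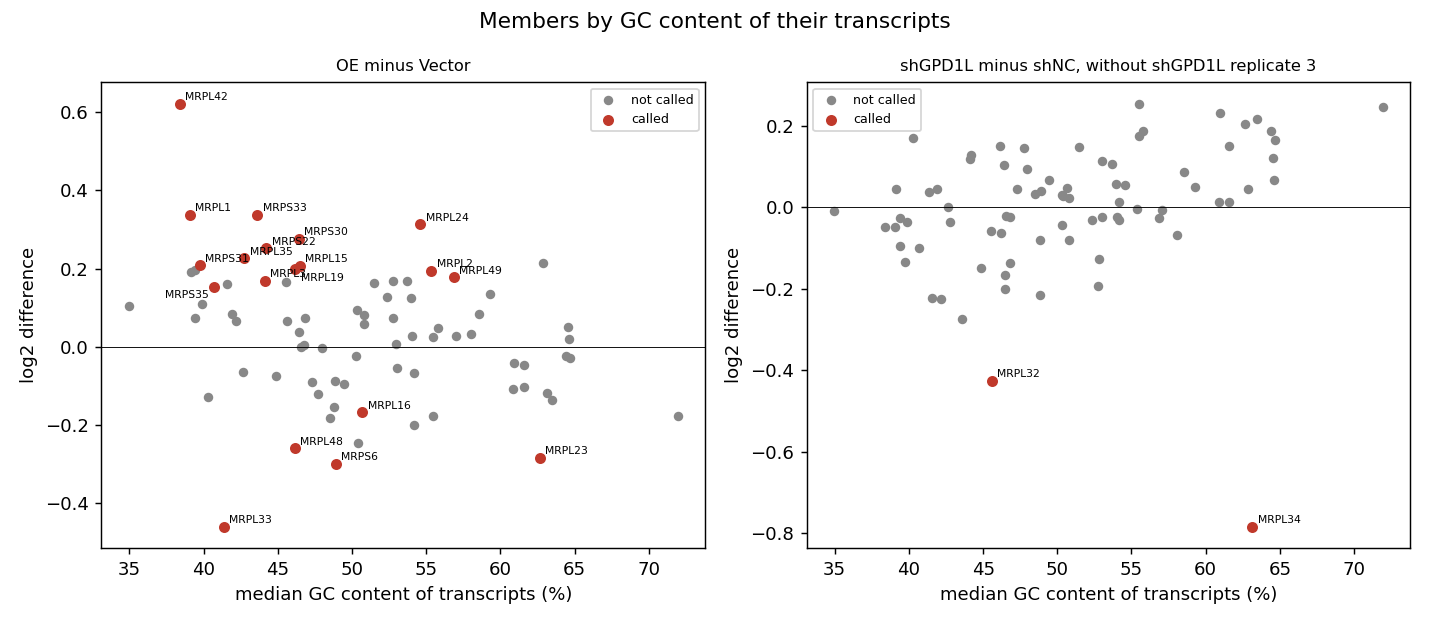
Log2 difference of each member (vertical axis) against the median GC content of its transcripts in percent (horizontal axis), for OE minus Vector on the left and for shGPD1L minus shNC without shGPD1L replicate 3 on the right; red points passed the threshold. Most members that rose in OE lie below 46.4% GC, and MRPL34 stands alone at the lower right of the knockdown plot.

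Genes that act with the mitochondrial ribosome were grouped as its other subunits, its factors and its regulators. Over all genes tested, 12.2% were higher and 10.3% lower in OE, and 0.592% passed in shGPD1L. The counts of these lists stand beside those shares, and differences from them were not tested. Of 5 subunits without an MRP symbol, among them DAP3 and PTCD3, 0 passed the threshold in OE or in shGPD1L (2 and 0 at an unadjusted p under 0.05). In OE, 1 of them was higher with equal library totals, and 1 was lower with median-of-ratios scaling or quantile normalization. Of 13 mitochondrial translation factors, 4 rose and 0 fell in OE (2 and 1 with quantile normalization). The initiation factor MTIF2 averaged 34.1 ± 1.45 FPKM in OE and 25.8 ± 0.966 FPKM in Vector (log2 difference 0.39, adjusted p = 0.0023). GFM2, which recycles ribosomes, rose by 0.28, the elongation GTPase GUF1 by 0.25 and the initiation factor MTIF3 by 0.20. Of 26 assembly factors, 4 rose (FASTKD2 by 0.32, MTERF3 and GTPBP10 by 0.26 each and DHX30 by 0.22) and 1 fell in OE, RBFA, which matures the small subunit RNA (-0.30, adjusted p = 0.0063). The pseudouridine synthase RPUSD4, needed for the large subunit RNA, was the 1 gene of these lists called in shGPD1L with all libraries. It averaged 15.0 ± 0.365 FPKM in shGPD1L and 9.12 ± 0.403 FPKM in shNC (0.66 ± 0.08, adjusted p = 0.0299; 0.68 and 0.00805 without replicate 3). FAM118B, which overlaps RPUSD4 on the opposite strand, differed by 0.03 (adjusted p = 0.956; without replicate 3 0.17, adjusted p = 0.509).

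The OE counts that follow also stand beside 12.2% of all genes higher and 10.3% lower. Of 20 genes listed for making mitochondrial aminoacyl-tRNAs, not all of them synthetases, 2 rose and 2 fell in OE. QRSL1, not itself a synthetase gene, was among the 2 that rose (by 0.23), and EARS2 fell by 0.30 and CARS2 by 0.25. With median-of-ratios scaling or quantile normalization 1 rose and 2 fell, and with equal library totals 3 rose and 2 fell. Of 9 genes of mitochondrial transcription and RNA stability, TFB2M rose by 0.18 (3 genes were higher with equal library totals and 0 with quantile normalization). Of 12 proteases and chaperones, AFG3L2, a subunit of the m-AAA protease, rose by 0.20 and YME1L1 by 0.19. With equal library totals 4 of these 12 were higher, and with quantile normalization 3. Of 9 regulators of mitochondrial biogenesis, 0 rose and 2 fell, MYC (60.8 ± 6.75 FPKM in OE and 78.9 ± 2.43 FPKM in Vector, log2 difference -0.38) and its partner MAX (-0.20). With equal library totals 1 of these regulators rose and 1 fell. None of 4 genes of inner membrane insertion passed in OE by limma (0 at an unadjusted p under 0.05). Of the 13 mitochondrially encoded messenger RNAs, which the mitochondrial ribosome translates, 0 were higher and 6 lower in OE (median -0.19), against 1 higher and 2 lower (median 0.00) with quantile normalization, a scaling tried on these lists after the data were seen. With equal library totals 5 were lower (median -0.14), and with median-of-ratios scaling 6 (median -0.21). MT-ND1 led with 1741 ± 77.6 FPKM in OE and 2601 ± 61.3 FPKM in Vector (-0.58, adjusted p = 0.0002), ahead of MT-ND2 (-0.33). Of 83 cytosolic ribosomal protein genes, 0 were higher and 45 lower in OE (median -0.20), among them RPL14 (-0.60) and RPL28 (-0.43), while the mitochondrial members stood at a median of 0.04. With quantile normalization 16 were lower (median -0.09), with equal library totals 29 (median -0.15) and with median-of-ratios scaling 54 (median -0.22). In shGPD1L, 0 genes of these lists other than RPUSD4 passed the threshold by limma, where 0.592% of all genes did. At an unadjusted p under 0.05 there were 8 cytosolic ribosomal protein genes and at most 3 genes of any other list. Over all genes that share was 16.3%. Without replicate 3, RPUSD4 and 3 cytosolic ribosomal protein genes passed, with RPS28 higher (0.36) and RPL7L1 (-0.68) and RPS27L (-0.49), both named as relatives of ribosomal protein genes, lower. At an unadjusted p under 0.05 there were then 23 cytosolic ribosomal protein genes and at most 4 genes of any other list. Over all genes without replicate 3, 5.01% passed the threshold and 23.9% had an unadjusted p under 0.05.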

How the data were processed

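Poly(A) RNA of 12 SW480 libraries was sequenced after random-hexamer priming, per the labels' protocols, which describe no step that keeps the strand. The submitters' processing notes name HISAT2, StringTie, DESeq2 and GRCh38, without versions or roles. The authors deposited FPKM in 1 table for each comparison. Low values are not multiples of a common step, so depth is unknown and no counting interval is given. No count model was fitted, as FPKM are not counts. Groups follow the titles; the numbers in the genotype labels' gene name were read as a slip. Genes averaging 1 FPKM or more in a table were tested as log2(FPKM + 1) with limma 3.58.1 (R 4.3.3, intensity trend, Benjamini-Hochberg adjustment over all genes tested, threshold 0.05), which was tested on simulated data. For 3 against 3 libraries, 0.1 is the smallest two-sided p of an exact permutation test. The tests include all 78 members. Positions, overlaps and GC content come from the GENCODE annotation and transcripts of GRCh38, and promoters from RefSeq.

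Members, lists, subunit classes, promoter motifs and alternatives were chosen with earlier results of these data known. Named members are up to 10 called in each direction with the largest change (otherwise the 5 with the smallest p), the 5 highest and lowest by level, the MRPS18 paralogs, MRPL12, MRPL58, MRPS36 and, of each list, up to 2 called genes a direction. Of the genes this rule names, 1 is not reported here. MRPL2, MRPL49, MTIF3, GUF1, GTPBP10 and DHX30 were added to complete counts after their values were seen, as were the overlapping and neighbouring genes. The settings varied were the pseudocount (0.1 or 0.5), the filter (none, or 5 FPKM), the scaling (equal library totals, median-of-ratios or quantile), the variance model (no trend, or robust), a replicate block, and each library left out in turn. Figures were drawn with matplotlib 3.10.9.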

Additional observations from a re-analysis of the deposited data

Results flagged for a closer look

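For 10 members the effect in OE minus Vector differed from that in shGPD1L minus shNC by limma's test of the difference over all 12 libraries (12.8%, against 14.1% of 11208 genes, so the count is near the background). The difference of the log2 differences was 0.69 for MRPS33, 0.53 for MRPL34, 0.51 for MRPL15, 0.47 for MRPS10, 0.44 for MRPS31, 0.41 for MRPL32, 0.32 for MRPS18B, 0.31 for MRPS35, 0.28 for MRPL19 and -0.37 for MRPS6. MRPS33, MRPL15, MRPS31, MRPS10, MRPL32 and MRPS35 lay above all Vector libraries in OE and below all shNC libraries in shGPD1L. They were chosen by the difference of effects in these same libraries, so this separation follows in part from the choice and adds no support. Over all genes, 24.2% lay above in OE and 15.1% below in shGPD1L, and the share with both was not computed. For MRPL34 the difference came from the knockdown, with -0.65 there against -0.12 in OE, and for MRPS6 from the overexpression, with -0.30 there against 0.08 in shGPD1L. GCFC2, which overlaps MRPL19, differed by 0.34 in OE and -0.30 in shGPD1L. PPP1R10, which overlaps MRPS18B, differed by 0.05 and -0.28, and PSMA2, which overlaps MRPL32, by 0.01 and -0.15. Reads of such overlapping genes cannot be told apart, and their part in the differences was not tested. The knockdown effects include shGPD1L replicate 3, in which most members were low, and without it the differences that passed numbered 14 in the positive and 7 in the negative direction (26.9% of members, against 22.9% of all genes).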

How the results depend on the processing

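Over all 78 members, 0 were called in opposite directions under different settings of the same comparison. Libraries of the same replicate number did not deviate together (correlations between -0.18 and 0.02), so the numbers were not taken as pairs. The replicate block gave 7 members higher and 5 lower in OE, and 1 positive and 0 negative differences of effects; it gave 0 calls in shGPD1L, as without it. Equal library totals gave 24 higher and 2 lower in OE (median log2 difference of the members 0.0929) and 13 positive and 0 negative differences of effects. Median-of-ratios scaling and quantile normalization each gave 9 higher and 7 lower in OE and 5 positive and 1 negative difference of effects. Without an intensity trend 7 were higher and 3 lower in OE. Both pseudocounts gave the reported counts. Calls over all 12208 genes in OE, 2740 as reported, moved too. They were 2021 with the block, 3418 with equal totals, 2717 with median-of-ratios, 2564 with quantile normalization and 2462 without a trend. Differences of effects over 11208 genes, 1584 as reported, were 483 with the block and 1807 with equal totals. They were 1393 with median-of-ratios and 1337 with quantile normalization. With 1 library left out, the OE counts ranged over 5 to 12 higher and 1 to 5 lower, the shGPD1L count over 0 to 2 lower, and the differences of effects over 3 to 15 positive and 0 to 7 negative. Over all genes, these calls ranged over 1550 to 1980 in OE, 0 to 609 in shGPD1L and 790 to 2572 for the differences of effects. The members' median ranged over 0.03 to 0.06 in OE and -0.15 to 0.01 in shGPD1L, where it was above 0 without shGPD1L replicate 3 alone. Depth is unknown, and small log2 differences in groups of 3 libraries are close to the spread between libraries.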

Other observations

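Genes next to the members on the genome were read in the same tests. Of the 19 genes that start divergently from a member, 18 were tested in OE, where 2 rose and 1 fell; 22.4% of all genes were called. MITD1, opposite MRPL30, rose by 0.21, SKA3, opposite MRPL57, rose by 0.31 and SLC7A7, opposite MRPL52, fell by 0.46 on the log2 scale. In none of these pairs (0 of 19) was the member called in OE as well. The members MRPL46 and MRPS11 start divergently from each other, and their pair was counted from both sides. Of 29 tested genes that overlap a member on the opposite strand, 2 rose and 3 fell in OE, against the same background. GCFC2, which overlaps MRPL19, was the partner of the 1 pair in which both genes were called. SEMA4G, which overlaps MRPL43, fell by 0.48 and C9orf116, which overlaps MRPS2, by 0.36. In shGPD1L, TMEM8A, which overlaps MRPL28 on the same strand, was higher (38.2 against 27.1 FPKM in shNC, log2 difference 0.48, limma adjusted p = 0.0389; without shGPD1L replicate 3 0.48, adjusted p = 0.0116).

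Some members had 1 library far from the other 2 of its group. In OE these were MRPL11 in replicate 1 (-0.41 log2 units from the mean of the other 2), MRPL33 in replicate 2 (0.34) and MRPS26 in replicate 1 (-0.31). In Vector they were MRPL53 (-0.59), MRPL42 (-0.33) and MRPS36 (-0.32), all in replicate 3. In shGPD1L they were MRPL27 in replicate 2 (0.83) and MRPS17 (-0.76) and MRPL20 (-0.73) in replicate 3, and in shNC MRPL11 in replicate 3 (0.43) and MRPS21 (-0.36) and MRPL48 (-0.34) in replicate 2. MRPL27 read 25.6, 38.1 and 17.1 FPKM in shGPD1L libraries, against 31.2, 28.3 and 36.5 FPKM in shNC libraries. Without Vector replicate 3, the lowest MRPL42 library of that group, MRPL42 still passed the threshold in OE.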
